A study of Mus musculus with 9 samples.

Results

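Gene expression in the otic vesicle (OV) was set against the rest of the embryo, using 6 of the 9 arrays of the series. The compared arrays were OV 1 to 3 and embryo-minus-otic 1 to 3, and the comparison covered all 25697 probes, listed under 18120 gene symbols. Every array came from CD-1 mouse embryos at embryonic day E10.5, and the labels name no transgene or treatment. An OV array measured RNA of a pool of vesicles dissected from the head, and an embryo-minus-otic array measured RNA of embryos from which the greater otic region had been removed. The remaining 3 arrays, of the periotic tissue around the vesicle (mesenchyme and hindbrain), entered the fit and are given where they help to place a difference. The embryo-minus-otic pools held brain, heart, limbs, somites, gut, liver, blood and surface ectoderm together, so their signal is a weighted mean over many tissues.

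The otic vesicle is the closed epithelial sac from which the whole inner ear forms. It arises from a placode of thickened head ectoderm beside the hindbrain under FGF and Wnt signals, pinches off, and is then patterned by transcription factors such as *Pax2*, *Gata3*, *Dlx5*, *Tbx1* and *Lmx1a*. Neuroblasts leave its floor to form the cochleovestibular ganglion, and its lining later gives rise to hair cells, supporting cells and the cells that secrete the otoconial and tectorial matrices. As a polarised epithelium it is sealed by claudins and other junction proteins, in contrast to the loose mesenchyme around it.

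Signals were log2 transformed and quantile normalised over the 9 arrays, and limma was fitted to every probe. *q* is limma's p-value after Benjamini-Hochberg adjustment over all 25697 probes, fold Δ is 2 raised to the difference of group means, and levels are normalised log2 signals. A probe was above background on an array where its detection p was under 0.01, which held for 43.9% to 47.3% of probes per array. Where no array of a group was above background, fold Δ is given as a lower bound, "at least". The bound compares the brighter group with, on each array, the higher of the probe's own level and the lowest level found above background. The study dissected 3 separate litters into triplicate pools of each tissue, but neither its methods nor the labels tie a numbered array to a litter, so *q* measures the spread between these pools. In bulk pools, fewer cells of a type and less RNA per cell cannot be told apart.

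One array stood apart before any result was taken. For 15 probes (14 genes) that were bright in embryo-minus-otic, with a mean log2 level above 9, and not above background on any periotic array, OV 1 was the highest OV array at 15 of 15. It was above background at 14 of them, OV 2 at 2 and OV 3 at 0. These genes encode heart and skeletal muscle proteins and factors of the trunk or midbrain, among them *Myl2*, *Myl7*, *Nppa*, *Hoxc9*, *Hoxa5*, *Meox1* and *En2*. After the periotic level was subtracted on the linear scale, the median OV 1 signal was 4.36% of the embryo-minus-otic signal, with a range from 0.616% to 7.84%. The same median was -0.134% on OV 2 and 0.0752% on OV 3. The part of this excess in any result was not tested, and the genes with the largest fall in OV are given with and without it, as are list counts that moved by over 1.5 times without it.

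**Figure D1:**
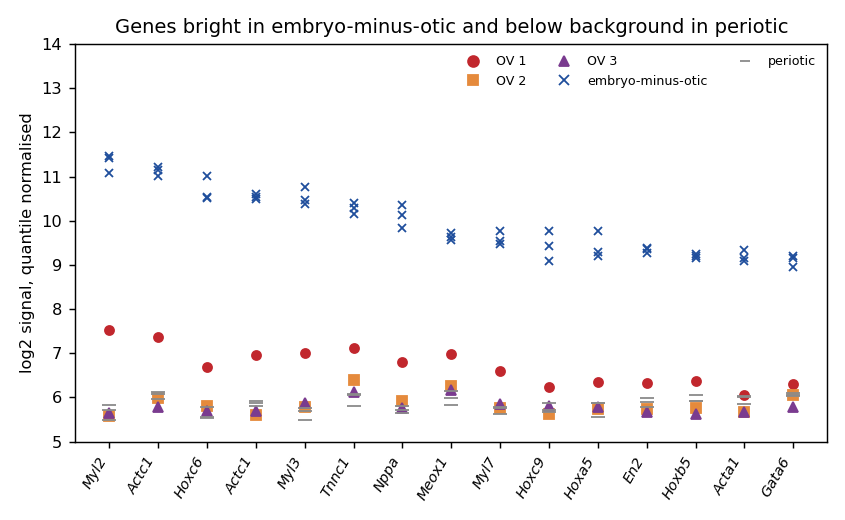
Normalised log2 signal (vertical axis) of the 15 probes that were bright in embryo-minus-otic and below background in periotic tissue, 1 column per probe, with a mark for each of the 9 arrays. OV 1 lies above OV 2 and OV 3 at all 15 probes, and every OV array lies below every embryo-minus-otic array.

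At *q* under 0.05, 1513 probes were higher in OV (5.89% of those tested) and 1417 were lower (5.51%), which became 1472 and 670 with median normalization. With a change over 2-fold as well, 232 were higher (0.903%) and 291 lower (1.13%), and with a change over 4-fold and *q* under 0.001, 51 were higher (0.198%) and 63 lower (0.245%). The 51 probes stood for 44 array symbols and the 63 for 56. With 1 probe per symbol, 43 (0.237%) and 56 (0.309%) passed, and the arrays did not overlap at 13.4% and 13.1% of symbols. On the lower side the changes reached further. A change over 8-fold was seen at 7 probes higher in OV and 25 lower, and a change over 16-fold at 0 and 7. The 3 arrays of the groups did not overlap at 3369 probes with OV above (13.1%) and 3038 with OV below (11.8%). The median difference over all probes was 0.0043 on the log2 scale, and the median standard error (SE) of a difference was 0.0989.

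The symbols over 4-fold apart were set against gene lists chosen with earlier results of these data known, so the counts are a description and no test. Among the 44 symbols over 4-fold higher in OV, 14 were on the lists of otic transcription factors, otic matrix, neuroblast or hair cell genes, and 9 on the lists of epithelial genes. Of 18120 symbols, these otic lists held 32, 18, 21 and 49 measured genes, and the 2 epithelial lists 47 and 30. No symbol of the lists for heart muscle, Hox, blood, endothelium or liver was among them, and 18 were on none of the lists. Of the 56 symbols over 4-fold lower, 13 were heart muscle genes, 12 were Hox genes and 5 were genes of brain, neural tube or neurons. The heart list held 34 measured genes, the posterior Hox and hindbrain lists 27 and 15, and the brain and neuron lists 43 and 34. For 23 of the 63 lower probes, OV 1 was the only OV array above background, and for 20 no OV array was.

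**Figure D2:**
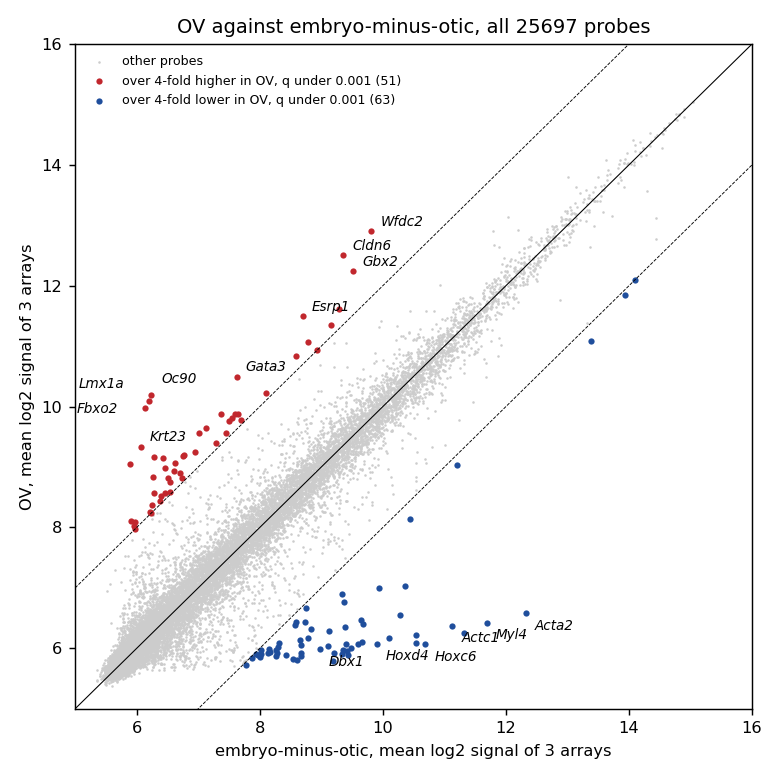
Mean normalised log2 signal of the 3 OV arrays (vertical axis) against that of the 3 embryo-minus-otic arrays (horizontal axis), 1 point per probe, with solid and dashed lines at equality and at 4-fold. The 51 probes higher in OV (red) run along the upper dashed line from dim to bright, and most of the 63 lower probes (blue) lie at the bottom, near the OV background.

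The gene with the largest fold Δ in OV was *Lmx1a*, on chromosome 1, a LIM homeodomain factor of the dorsal otocyst and of the roof plate of the neural tube. Its level was 10.14, 10.15 and 10.25 on OV 1, 2 and 3 and 6.19, 6.31 and 6.18 on the embryo-minus-otic arrays, a fold Δ of 15.5 (log2 3.96, SE 0.09, *q* = 7.21e-13). All OV arrays lay above all others, and the periotic arrays, at 6.62 to 6.82, lay between the groups. Both other *Lmx1a* probes were dim, above background on no embryo-minus-otic array, and at least 1.09-fold and 1.17-fold higher. *Oc90*, on chromosome 15, encodes otoconin, the main protein of the otoconial matrix. It was at 10.01, 10.56 and 9.69 in OV and at 6.22, 6.18 and 6.19 in embryo-minus-otic (14.8-fold, *q* = 3.62e-10). *Fbxo2*, on chromosome 4, encodes an F-box protein that directs glycoproteins to the ubiquitin ligase. It was at 9.89, 10.03 and 10.02 in OV against 6.12, 6.02 and 6.26 (14.4-fold, *q* = 6.42e-12). For both genes only 1 of the 3 embryo-minus-otic arrays was above background, as it was for *Lmx1a*, and the groups did not overlap.

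*Krt23* (array symbol *Krt1-23*), a type I keratin, and *Spp1*, which encodes the secreted matrix protein osteopontin, were not above background on any embryo-minus-otic array. *Krt23* was at 9.45, 8.999 and 9.57 in OV against 6.18, 6.04 and 5.99, at least 8.71-fold higher (*q* = 2.13e-10). *Spp1* was at 9.04, 8.71 and 9.39 against 5.67, 6.20 and 5.83, at least 7.12-fold higher (*q* = 2.06e-09). *Cldn6*, a claudin of embryonic epithelia, was bright on both sides, with 12.41, 12.48 and 12.61 in OV and 9.61, 8.80 and 9.67 in embryo-minus-otic (8.84-fold, *q* = 6.73e-09). *Wfdc2* (1600023A02Rik), a secreted protease inhibitor of epithelia, was at 13.01, 13.06 and 12.63 against 10.06, 9.81 and 9.58 (8.48-fold, *q* = 1.28e-09). For these genes the lowest OV array stood more than 2 log2 units above the highest embryo-minus-otic array.

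The remaining genes of the 15 with the largest rise lay between 7.40-fold and 5.76-fold. They were *Plekhb1* (7.40-fold), *Gata3* (7.29-fold), the splicing factor *Esrp1* (array symbol *Rbm35a*, 6.93-fold), *Gbx2* (6.60-fold), *Col9a2* (6.57-fold), the guanine nucleotide exchange factor *Arhgef19* (5.97-fold), the heparan sulfate sulfotransferase *Hs3st1* (5.83-fold) and *Plekha4* (5.76-fold). Leaving out OV 1 moved none of these 15 by more than 1.12 times. A background correction with neqc, which widens the differences of dim probes, gave 32.1-fold for *Lmx1a*, 31.2-fold for *Oc90* and 31.7-fold for *Fbxo2*, but 9.38-fold for *Cldn6* and 8.81-fold for *Wfdc2*. The fold Δ of the dim genes thus moved by over 2-fold and that of the bright genes little, so the order of the 15 depends on the background correction.

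**Figure D3:**
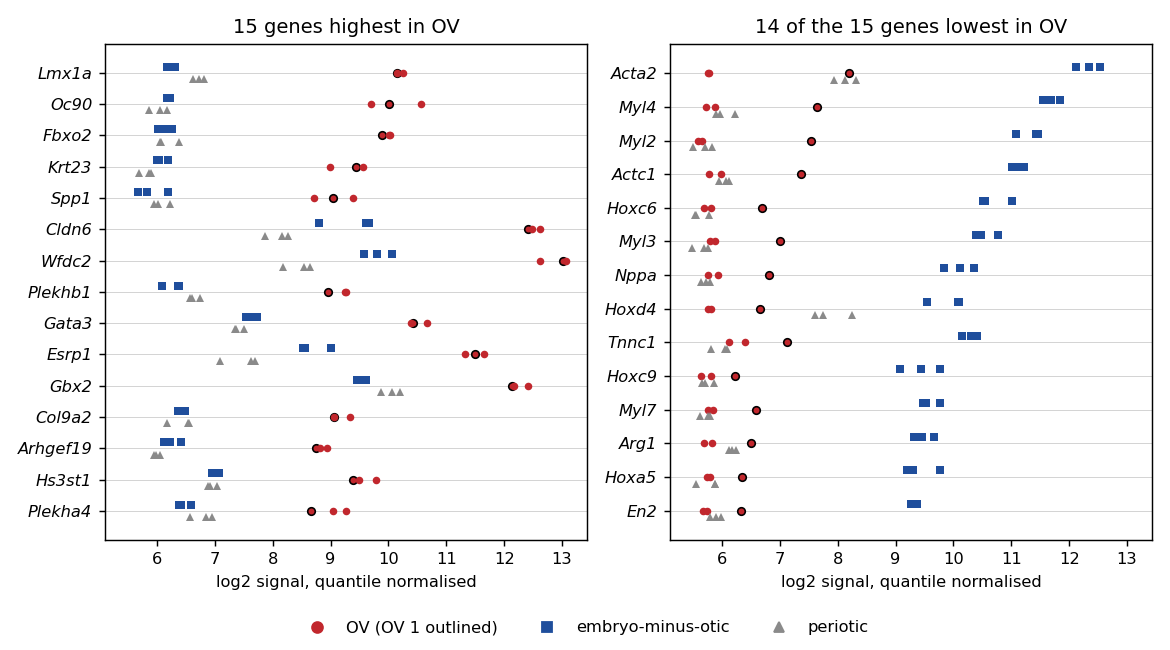
Normalised log2 signal (horizontal axis) on each of the 9 arrays for the 15 genes with the largest rise (left) and 14 of the 15 with the largest fall (right) in OV among probes with *q* under 0.001 and no overlap, labelled by current symbol. OV (circles) and embryo-minus-otic (squares) are separate in every row, and OV 1 (outlined) is the highest OV array in all 14 rows on the right.

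Among otic transcription factors, 19 of 32 measured genes were higher in OV and 2 were lower, against 6.58% and 6.51% of all genes when each was read by its brightest probe. The median difference of the list was 0.55 on the log2 scale, and 0.0026 over all genes. This list and the others were chosen with earlier results of these data known, so an excess over all genes is a description and no test. Of the 32 genes 28 were above background in a whole group, while 45.3% of all genes were above background on none of the 6 arrays. *Gata3*, which is required for otic morphogenesis, was at 10.42, 10.40 and 10.67 in OV and 7.73, 7.61 and 7.54 in embryo-minus-otic (*q* = 8.03e-11). *Tbx1*, a T-box factor of the posterior and ventral otocyst, was higher by 2.52 ± 0.10 (log2, SE, *q* = 2.13e-10). The related *Tbx2* was higher by 2.44 ± 0.15 (*q* = 1.64e-08), and *Tbx3* by 0.88 ± 0.10 (*q* = 1.27e-05). *Eya1*, a transcriptional coactivator of the sensory placodes, was higher by 1.30 ± 0.11, and *Eya4*, mutated in a form of progressive deafness, by 0.76 ± 0.10. *Sox9*, a placodal HMG-box factor, was higher by 2.08 ± 0.16. *Irx3*, *Gata2*, *Six4*, *Dlx3* and *Sox8* were higher by 0.36 to 0.79.

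The placodal genes *Pax2*, *Pax8* and *Dlx5* were dim. No embryo-minus-otic array was above background for any of them and all 3 OV arrays were, so that they were at least 1.04-fold, 1.80-fold and 1.44-fold higher (*q* = 0.000803 for *Pax2*, but 0.464 with no normalization between arrays). *Hmx2* and *Hmx3*, homeobox genes of the dorsal vesicle, were not above background on any array and were not called. Of the 11 genes taken to check the otic label, 9 were higher in OV, and these were the exceptions. The genes of the list that were lower in OV were *Tfap2a* (array symbol *Tcfap2a*), an AP-2 factor of surface ectoderm and neural crest, by 1.20 ± 0.11 (*q* = 1.76e-06), and *Msx1*, a homeobox gene of limb and facial mesenchyme, by 1.11 ± 0.21 (*q* = 0.00174).

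Genes of the otic matrix were mostly below background in both groups, and 6 of 18 measured were higher in OV. Beside *Oc90*, *Spp1* and *Col9a2*, these were *Col2a1*, the type II collagen chain, at 11.18, 11.25 and 11.60 in OV against 9.16, 9.09 and 9.21 (log2 difference 2.19 ± 0.11), *Otol1* (array symbol *Gm414*), the otoconial scaffold protein otolin, at least 1.66-fold, and *Umod*, which was above background on 1 OV array only. *Sparc*, a matrix glycoprotein made mainly by mesenchyme, was lower by 1.27 ± 0.12. The collagens *Col2a1* and *Col9a2* had periotic minus embryo-minus-otic differences of -0.03 and -0.01 on the log2 scale, neither past the threshold.

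The neuroblast list was divided, with 5 of 21 genes higher and 4 lower. *Bdnf*, the neurotrophin that the vesicle supplies to its own sensory neurons, was at 8.76, 9.12 and 8.85 in OV and 6.60, 6.83 and 6.67 in embryo-minus-otic (log2 difference 2.21 ± 0.11, *q* = 2.11e-09). *Neurod1*, a bHLH factor of delaminating neuroblasts, was higher by 1.74 ± 0.12. *Neurog1*, *Isl1* and *Pou4f1*, also taken to mark otic neuroblasts, were not called (log2 differences 0.04, -0.44 and -0.24, *q* = 0.886, 0.147 and 0.357). *Ntf3*, the other otic neurotrophin, was at least 1.30-fold higher, and the neurotrophin receptor *Ntrk2* was higher by 0.53 ± 0.10. *Insm1* was higher by 1.43 ± 0.10 and was also higher in periotic tissue than in embryo-minus-otic, by 1.42. *Neurod4* was lower, with 6.24, 5.94 and 5.99 in OV against 7.46, 7.59 and 7.78, and so were *Dll3* and *Phox2a*, by 0.84 and 0.53, and *Ntrk3*, by at least 1.02-fold.

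Genes that hair cells use later, or that are mutated in deafness, were in part already separate at this stage. Of 49 measured, 11 were higher and 4 lower, and 19 were above background in a whole group. *Espn*, which bundles the actin of stereocilia, was at 9.59, 9.93 and 10.10 in OV and 7.59 on each of 2 embryo-minus-otic arrays and 7.60 on the third (log2 difference 2.28 ± 0.13, *q* = 9.24e-09). *Myo7a*, the unconventional myosin of hair bundles, was at 7.70, 7.96 and 8.62 in OV and above background on no embryo-minus-otic array, at least 3.67-fold (*q* = 2.69e-07). *Grhl2* (array symbol *Tcfcp2l3*), a grainyhead factor of epithelia and a deafness gene, was higher by 1.96 ± 0.14. *Gjb2*, connexin 26, and *Ush1c*, harmonin, were higher by 0.70 and 0.68. Among those lower were *Cldn11*, *Whrn* and *Pou3f4*, by 0.51 to 0.99, the last a factor of periotic mesenchyme and hindbrain.

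Among the called epithelial genes nearly all were higher in OV. Of 47 measured genes for junctions and polarity, 28 were higher in OV and 1 was lower, with a median difference of 0.56 on the log2 scale, and 15 of the 47 were over 2-fold higher, against 1.1% of all genes. Claudins, which seal the paracellular space, included *Cldn6*, *Cldn4* (10.34, 10.12 and 10.20 in OV against 8.16, 7.95 and 8.19, *q* = 1.64e-08), *Cldn3* (8.11, 8.30 and 8.32 against 6.20, 6.19 and 6.32, *q* = 7.38e-10), *Cldn7* (0.88), *Cldn10* (0.77), *Cldn12* (0.56) and *Cldn9* (0.44). In tight junctions, *Marveld3* was at least 3.72-fold and occludin (*Ocln*) at least 1.81-fold higher, *F11r* was higher by 0.70, and the scaffold *Tjp3* was at least 1.20-fold higher. E-cadherin (*Cdh1*), the classic adherens junction protein, was at 8.998, 9.13 and 9.10 in OV against 7.90, 7.58 and 7.80 (*q* = 6.50e-07). P-cadherin (*Cdh3*) was higher by 1.78 ± 0.11. The clathrin adaptor subunit *Ap1m2* and the GTPase *Rab25*, which serve polarised sorting, were higher by 1.90 and 1.53, and the polarity gene *Llgl2* by 1.25. Keratins of simple epithelium, *Krt8* and *Krt18*, were higher by 0.66 and 1.24. *Krt7* was the gene that was lower, by 0.41 ± 0.10.

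Regulators and surface proteases of epithelia showed 14 of 30 genes higher and 1 lower. *Esrp1*, which sets epithelial splicing, was at 11.49, 11.65 and 11.33 in OV against 9.01, 8.53 and 8.56 (*q* = 5.43e-09). The serine proteases *Prss8* (prostasin) and *St14* (matriptase) were higher by 2.44 ± 0.16 and 1.49 ± 0.10, and their inhibitors *Spint1* and *Spint2* were at least 1.63-fold and at least 1.28-fold higher. *Ovol2* and *Klf5*, zinc-finger factors of epithelia, were higher by 0.56 and 0.38. *Trp63*, the master regulator of stratified surface epithelium, was lower: 6.07, 5.77 and 5.86 in OV, none above background, against 7.95, 7.86 and 8.02, at least 3.35-fold (*q* = 8.01e-09). Another factor of surface ectoderm, *Tfap2c* (array symbol *Tcfap2c*, no list member, named after its values were seen), was lower by 2.10 ± 0.16 at its brightest probe (*q* = 1.96e-07).

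**Figure D4:**
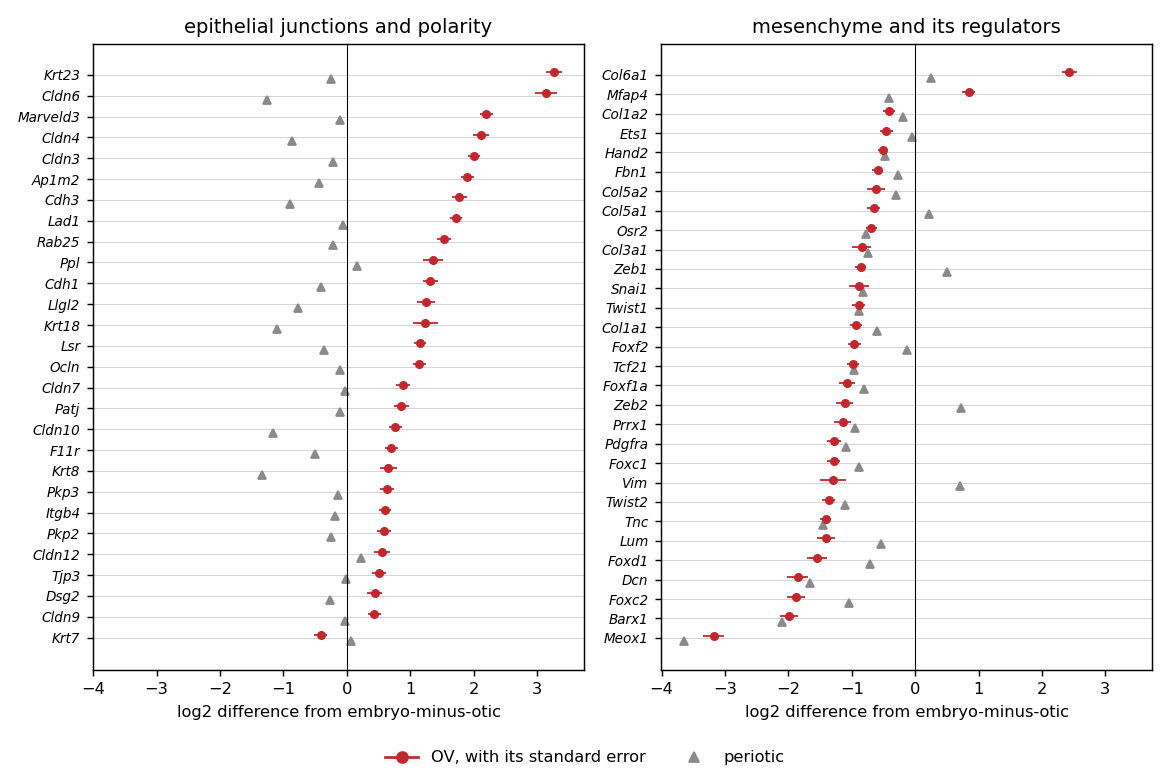
Log2 difference from embryo-minus-otic (horizontal axis) of OV (circles, with the SE) and periotic tissue (triangles) for called genes of the epithelial junction list (left, 28 of 29 shown) and the mesenchyme list (right). On the left 27 of 28 OV values are above 0, and on the right 28 of 30 are below it. Both differences share the embryo-minus-otic arrays, and genes not above background in a group are drawn at their measured difference.

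Promoter sequence was read for the genes over 4-fold apart, from RefSeq windows on GRCm38.p6 that run from 250 bases before to 50 bases after a gene's start. Windows were used for 34 of the 44 genes higher in OV and for 39 of the 55 lower ones. Over the array they were used for 13425 of 17850 genes. Windows on 1 chromosome were left out, so a gene there counts as without a window. The motifs were searched on both strands in every window of a gene. CAGGTG, the E-box form bound by Snail and Zeb repressors, was in a window of 16 of 34 genes higher in OV (47.1%), 4 of 39 genes lower in OV (10.3%) and 2944 of 13425 genes of the array (21.9%). Counted by window, the shares were 31.5%, 8.33% and 19.3%. Among the 16 genes was *Defa31*, taken from the probe for *Defcr-rs7*, which cannot be tied to 1 member of its gene family. The other motifs were AACCNGTT, of grainyhead factors, in 1 of 34 against 2.26% of all genes, its palindrome AACCGGTT, an instance of it, in 0 of 34 against 0.223%, AGATAA, of GATA factors, in 2 of 34 against 11%, GGAATG, of TEA-domain factors, in 7 of 34 against 15.1%, and TATAAA in 5 of 34 against 14.1%. TATAAA was in 13 of 39 genes lower in OV (33.3%), among them *Acta1*, *Actc1*, *Myl1* and *Myl2*. In the same 39 genes, GGAATG was in 12 (30.8%), AGATAA in 5 (12.8%), AACCNGTT in 1 (2.56%) and the palindrome in 0. No test was made of these shares, and a match is a description of letters, not of a bound site. Below are 3 of the windows with CAGGTG, chosen after the search because their genes seal or sort the epithelium, with each match or its reverse complement in capitals, written along the gene's strand.
Cldn6 (chr17:23679115-23679414, plus strand): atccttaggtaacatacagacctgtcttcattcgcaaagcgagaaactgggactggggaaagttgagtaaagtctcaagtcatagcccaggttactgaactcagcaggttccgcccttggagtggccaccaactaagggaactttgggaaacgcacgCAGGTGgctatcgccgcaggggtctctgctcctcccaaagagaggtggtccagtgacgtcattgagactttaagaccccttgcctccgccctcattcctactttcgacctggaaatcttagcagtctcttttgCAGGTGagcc
Cldn4 (chr5:134946885-134947184, minus strand): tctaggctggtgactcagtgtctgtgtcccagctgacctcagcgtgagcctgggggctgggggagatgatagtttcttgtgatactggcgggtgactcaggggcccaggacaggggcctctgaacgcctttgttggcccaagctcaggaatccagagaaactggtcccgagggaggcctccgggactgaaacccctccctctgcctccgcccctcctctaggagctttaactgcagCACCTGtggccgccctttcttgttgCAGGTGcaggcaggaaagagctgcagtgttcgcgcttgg
Ap1m2 (chr9:21312284-21312583, minus strand): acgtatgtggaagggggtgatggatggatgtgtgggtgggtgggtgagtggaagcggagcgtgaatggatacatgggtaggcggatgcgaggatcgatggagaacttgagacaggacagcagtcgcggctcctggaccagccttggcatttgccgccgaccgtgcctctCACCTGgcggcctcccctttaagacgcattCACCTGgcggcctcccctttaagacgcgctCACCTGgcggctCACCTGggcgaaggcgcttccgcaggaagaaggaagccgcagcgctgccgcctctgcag

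*Ap1m2* held 4 matches, and *Cldn6* and *Cldn4* held 2 each. The genes for factors that bind this motif were measured on the same arrays. *Zeb1* (array symbol *Zfhx1a*) was at 8.58, 8.48 and 8.63 in OV against 9.47, 9.27 and 9.53, lower by 0.86 ± 0.09 (*q* = 6.24e-06). *Zeb2* (*Zfhx1b*) was lower by 1.11 ± 0.14 and *Snai1* by 0.88 ± 0.16. Whether the matches bear on the differences was not tested.

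In FGF signalling, 6 of 36 genes were higher and 8 lower. *Fgf10*, a ligand made by the otic epithelium, was at 9.82, 9.79 and 9.83 in OV against 7.64, 7.54 and 7.49 (log2 difference 2.26 ± 0.08, *q* = 1.69e-10). *Fgf9* was at least 1.90-fold higher, the decoy receptor *Fgfrl1* was higher by 1.40 ± 0.11, and *Etv5*, a transcriptional target of FGF signals, by 1.46 ± 0.12. The ligands *Fgf8*, *Fgf17* and *Fgf15*, made by signalling centres of brain, limb and tail, were lower by 1.69, 1.23 and 1.00, and the feedback phosphatase *Dusp6* by 0.67.

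For Wnt signalling the counts were 6 higher and 14 lower of 52. The receptors *Fzd7* (11.14, 10.77 and 11.22 in OV against 9.60, 8.995 and 9.59) and *Fzd6* were higher, as were the Wnt-responsive genes *Sp5* (1.31 ± 0.16) and *Lgr5* (array symbol *Gpr49*, 0.87 ± 0.11) and the ligand *Wnt6* (0.51 ± 0.14). Of the 14 lower genes, 7 were Wnt ligands, with *Wnt7a* at least 3.03-fold, *Wnt2* at least 2.88-fold and *Wnt4* at least 1.67-fold lower and *Wnt3a* lower by 1.93 ± 0.15. The secreted antagonists *Sfrp2* and *Dkk3* were lower by 1.20 and 1.02.

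BMP signalling had 6 of 38 genes higher and 7 lower. The ligands *Bmp7* and *Bmp4* were higher by 1.15 ± 0.12 and 0.51 ± 0.10 and the receptor *Bmpr1b* by 0.89 ± 0.10, while the secreted antagonist *Chrd* was lower by 0.34 ± 0.09 and the antagonists *Grem1* and *Nog*, above background on no OV array, were at least 1.18-fold and 1.05-fold lower. Without OV 1 these counts were 4 and 4, and with median normalization 4 and 1. In the Notch pathway 6 of 26 genes were higher and 4 lower. *Jag1*, the ligand of prosensory patches, was at 9.48, 9.38 and 8.62 in OV against 8.11, 7.56 and 7.73 (*q* = 0.000146), *Hey1*, *Hes6*, *Nrarp* and *Notch1* were higher by 0.56 to 1.00, and *Lfng* was at least 1.36-fold higher. *Hes5*, a Notch target of the neural tube, was at 6.41, 6.17 and 6.31 in OV and 9.35, 9.30 and 8.75 in embryo-minus-otic (lower by 2.84 ± 0.16), and the imprinted non-canonical ligand *Dlk1* was lower by 3.32 ± 0.14.

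Of 20 retinoic acid genes, 3 were higher and 6 lower. The synthesising enzyme *Aldh1a1* was at least 2.08-fold higher, whereas the enzymes *Aldh1a2* (at least 1.65-fold) and *Aldh1a3* and the receptor *Rarb*, itself a retinoic acid target, were lower. *Crabp1*, a binding protein of hindbrain and crest, was lower by 1.56 ± 0.13. *Shh* was the 1 gene called, as lower, of 13 in Hedgehog signalling (7.69%, against 6.51% of all genes). It was at 5.998, 5.81 and 5.84 in OV, none above background, against 8.22, 8.16 and 8.39 (at least 4.16-fold lower, *q* = 8.68e-09).

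Heart muscle genes had the lowest median difference of the lists. Of 34 measured, 25 were lower in OV and 0 higher, with a median difference of -1.28 on the log2 scale. The largest drop over all probes was outside the list, at a probe under 0610041G09Rik, which RefSeq gives as a former name of *Acta2*, the smooth muscle actin that embryonic heart muscle also makes. It was at 8.20, 5.78 and 5.76 in OV and 12.34, 12.12 and 12.52 in embryo-minus-otic, 53.9-fold lower (*q* = 1.62e-07), and at least 68.7-fold lower without OV 1. The 3 probes listed as *Acta2* were lower too, the brightest 10.03-fold, the next 5.74-fold and the dimmest at least 3.53-fold. Within the list, the atrial myosin light chain *Myl4* was at 7.65, 5.88 and 5.73 against 11.84, 11.55 and 11.69 (38.7-fold lower, *q* = 2.33e-08, and at least 44.3-fold without OV 1). The ventricular light chain *Myl2* was 33.4-fold lower, and at least 34.3-fold without OV 1, cardiac actin *Actc1* 27-fold (at least 30-fold without OV 1) and *Myl3* 19.9-fold (at least 20-fold). The hormone gene *Nppa* and cardiac troponin C (*Tnnc1*) were 15.4-fold (at least 14.8-fold without OV 1) and 13.3-fold (16-fold) lower. Over the whole list the mean level was 6.38 on OV 1, 6.03 on OV 2 and 6.04 on OV 3 and 7.80 to 7.94 on embryo-minus-otic arrays, and 11, 4 and 3 of its genes were above background on the OV arrays. Without OV 1 the list again had 25 genes lower and 0 higher.

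Hox genes, which mark position along the trunk and hindbrain, were also lower. Of 27 posterior Hox genes, 15 were lower in OV and 0 higher, with a median of -0.57. *Hoxc6* was at 6.69, 5.80 and 5.70 in OV and 10.52, 11.01 and 10.54 in embryo-minus-otic (24.7-fold lower, *q* = 5.8e-10, and at least 22.1-fold without OV 1). *Hoxc9* and *Hoxa5* were 11.6-fold and 11-fold lower (at least 9.25-fold and 9.20-fold without OV 1), and *Hoxd10*, *Hoxb7* and *Hoxd8* at least 5.55-fold, 5.27-fold and 4.69-fold. Among 15 genes of hindbrain and periotic tissue, 9 were lower and 0 higher. *Hoxd4* was at 6.66, 5.82 and 5.76 against 10.08, 10.09 and 9.54 (14.2-fold lower, and at least 12.8-fold without OV 1). *Hoxb2* and *Hoxa2*, Hox genes of the hindbrain segments next to the ear, were above background on all OV arrays and lower by 1.75 ± 0.14 and 0.77 ± 0.12, the latter not past the threshold with median normalization (*q* = 0.149).

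Genes of brain and neural tube were lower at 22 of 43 and higher at 3, and genes of neurons were lower at 17 of 34 (10 with median normalization) and higher at 2. *En2*, of midbrain and anterior hindbrain, was 10.7-fold lower (at least 8.66-fold without OV 1), and *Otx2*, of forebrain and midbrain, was at 6.95, 7.36 and 6.41 against 9.24, 9.30 and 9.47. Some other genes taken to mark the central nervous system were not above background on any array compared and were not called. *Dbx1*, of neural tube progenitors, was at least 6.86-fold lower and *Nkx6-1*, of ventral progenitors, at least 3.42-fold. Among neuronal genes, *Nefm* and *Stmn2* were lower by 1.66 ± 0.18 and 1.61 ± 0.25. *Rtn1*, a reticulon of neurons and neuroendocrine cells, went the other way, with 11.05, 10.64 and 11.12 in OV against 8.92, 8.98 and 8.90 (*q* = 6.40e-08). Other genes of these lists that were higher included *Irx3*, *Sox21* and *Ebf2*.

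Mesenchyme genes were lower at 28 of 45 and higher at 2, with a median of -0.65. The mean of the list was 6.86 to 6.96 on OV arrays, 7.03 to 7.15 on periotic and 7.53 to 7.64 on embryo-minus-otic arrays. The markers *Twist1*, *Prrx1*, *Col3a1* and *Pdgfra* were above background on all OV arrays. At their brightest probes OV minus periotic was -0.006, -0.20, -0.11 and -0.19 on the log2 scale (*q* = 0.99, 0.506, 0.819 and 0.439). Among regulators, *Meox1* was lower by 3.18 ± 0.16, *Foxc2* by 1.88 ± 0.14, *Twist2* by 1.36 ± 0.10, *Prrx1* by 1.15 ± 0.13 and *Twist1* by 0.89 ± 0.11, and the homeobox gene *Barx1* was at least 3.41-fold lower. Of structural genes, decorin (*Dcn*), lumican (*Lum*) and vimentin (*Vim*) were lower by 1.85, 1.41 and 1.30. *Col6a1*, a type VI collagen chain, was higher, with 9.37, 8.97 and 9.28 in OV against 6.82, 6.76 and 6.74 (log2 difference 2.43 ± 0.12, *q* = 1.48e-09), and *Mfap4*, of elastic microfibrils, was higher by 0.84.

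Of somite and tail bud genes 12 of 28 were lower and 1, the tendon factor *Scx*, was higher by 0.86 ± 0.10. *Tcf15* and *Meox2* were at least 3.21-fold and at least 3.49-fold lower. In the limb bud list 7 of 19 were lower and 0 higher, and in liver and endoderm 18 of 37 were lower and 0 higher, with *Afp* at least 2.97-fold and *Apoa2* at least 2.48-fold. The genes taken to mark limb were above background on no array compared and were not called. Some of those taken to mark liver were not called either. *Tfap2b* (*Tcfap2b*), of the neural crest list, in which 5 of 11 genes were lower (3 without OV 1), was at 6.60, 6.41 and 6.19 in OV against 9.73, 9.69 and 9.62, lower by 3.28 ± 0.10 (*q* = 4.25e-11). In the nephric and gonad list 5 of 20 were higher and 4 lower. Of those higher, *Pax2*, *Pax8* and *Eya1* are also otic genes, and *Wt1*, of kidney and gonad, was at least 4.24-fold lower. Among eye and lens genes 2 of 21 were lower (9.52%, against 6.51% of all genes, and 1 gene without OV 1) and 0 higher. *Arg1*, the urea cycle arginase, was in no list and was 11.1-fold lower (at least 9.60-fold without OV 1).

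Blood and vessel genes were lower but present in OV. Of 25 erythroid genes 15 were lower and 0 higher, and of 32 endothelial genes 23 were lower and 0 higher. The embryonic globin *Hbb-bh1* was at 12.75, 12.55 and 10.97 in OV and 13.87, 14.21 and 14.19 in embryo-minus-otic (lower by 2.00 ± 0.31, *q* = 0.000313), and *Hba-x* was at 11.89, 11.42 and 10.85 against 13.41, 13.13 and 13.42. The mean of the erythroid list was 7.88, 7.69 and 7.49 on OV 1, 2 and 3 and 8.50 to 8.53 on the embryo-minus-otic arrays, so the OV pools differed among themselves more than the other group. The endothelial list had means of 6.89 to 6.99 in OV and 7.56 to 7.66 in embryo-minus-otic. *Pecam1*, at its brightest probe, and *Tek* were lower by 0.61 and 0.57 and the arterial connexins *Gja5* and *Gja4* by 1.66 and at least 2.62-fold. A dimmer *Pecam1* probe was not called (*q* = 0.571). *Cdh5* and *Kdr*, also taken to mark endothelium, were not called either (log2 differences -0.14 and -0.12, *q* = 0.583 and 0.637). With median normalization 15 endothelial genes were lower in place of 23. Of 19 macrophage genes 1 was lower, *Coro1a* (5.26%, against 6.51% of all genes), and 5 were above background in a whole group.

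Detection on the same arrays was read as well. Of all probes, 38.6% were above background on each of the 6 arrays compared and 47.9% on none of them (42% and 45.3% of genes read by 1 probe). Another 253 probes (0.985%, 241 symbols) were detected on every OV array and on no embryo-minus-otic array, and the reverse held for 246 (0.957%, 229 symbols). By gene the shares were 1.04% and 1.08%. Of the 253, 196 were also higher at *q* under 0.05 and 25 had a lower bound over 2-fold, and of the 246, 225 were lower and 54 had such a bound. The same signals set the detection filter and *q*, so these counts are no independent check of direction. On the side where they were seen, their median log2 level was 6.45 for OV and 6.67 for embryo-minus-otic. Periotic tissue was above background on all 3 arrays for 35 of the 253 and on none for 145.

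The brightest of the probes seen only in OV were, after *Krt23* and *Spp1*, those for *Marveld3* (at least 3.72-fold), *Myo7a* (at least 3.67-fold), the neurite-controlling membrane protein *Slitrk6* (8.47, 8.18 and 7.42 in OV, at least 3.50-fold), the defensin-related *Defcr-rs7* (8.44, 7.76 and 7.73, at least 3.39-fold), 1 of the *Ap1m2* probes (at least 2.98-fold) and AI591476, given by RefSeq as *Jazf1* (at least 2.61-fold). A defensin symbol belongs to a family of near-identical genes, so its probe cannot be tied to 1 member. Without OV 1 the bounds of *Slitrk6* and *Defcr-rs7* were 2.98-fold and 2.87-fold. The brightest seen only in embryo-minus-otic were *Acta1* (at least 7.97-fold), *Dbx1*, *Hoxd10*, *Csrp3*, a muscle LIM protein (at least 5.54-fold), *Hoxb7*, the peptide hormone gene *Sst* (at least 5.07-fold), *Hoxd8* and *Ankrd1* (at least 4.34-fold).

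Whether a gene set OV apart from its immediate surroundings or from distant organs was read from the periotic arrays. Between periotic tissue and embryo-minus-otic, 736 probes were higher in periotic tissue (2.86%) and 757 lower (2.95%), which became 812 and 315 with median normalization. This contrast shares the embryo-minus-otic arrays with the main comparison. Among probes over 4-fold apart between OV and either other group, the 5 with the lowest measured periotic minus embryo-minus-otic differences were the muscle and trunk genes *Myl4*, *Myl2*, *Actc1*, *Hoxc6* and *Myl3*. *Myl4* was above background on 1 periotic array and lower there by 5.66 on the log2 scale. The others were above background on no periotic array and at least 35.2-fold, 30.9-fold, 22.8-fold and 20.5-fold lower than in embryo-minus-otic, and the difference between OV and periotic tissue passed the threshold for none of the 5. *Dbx1* and *Rfx4* were instead higher in periotic tissue than in embryo-minus-otic, by 1.25 and 1.64. In OV, *Dbx1* was at least 16.3-fold lower than in periotic tissue and *Rfx4* lower by 4.16 on the log2 scale. *Hoxa2*, *Olig3*, *Hoxb2* and *Rassf4* were likewise higher in periotic tissue, by 1.61 to 1.76. On the other side, *Cldn6*, *Wfdc2* and *Esrp1* were lower in periotic tissue than in embryo-minus-otic, by 1.26, 1.36 and 1.23, whereas *Lmx1a* and *Gbx2* were higher in it, by 0.50 and 0.53 (*q* = 0.00193 and 0.0054).

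Among the lists of growth and general genes, imprinted growth genes differed most, with a median difference of -0.45 on the log2 scale. Of 39 cell cycle genes 3 were higher and 2 lower (7.69% and 5.13%), near the 6.58% and 6.51% of all genes. Cyclin D1 (*Ccnd1*) was at 12.95, 13.20 and 13.24 in OV against 12.03, 12.06 and 11.99 (*q* = 2.31e-06), and cyclin D2 (*Ccnd2*) at 9.82, 10.04 and 9.50 against 10.87, 11.98 and 10.85 (*q* = 0.000316). The cell cycle inhibitor *Cdkn1a* was higher by 1.28 ± 0.11, *Top2a* was higher by 0.55 and cyclin D3 (*Ccnd3*) lower by 0.58. Imprinted growth genes were lower at 10 of 20 (6 with median normalization) and higher at 0, *H19* by 1.12 ± 0.10 and *Igf2* by 0.72 ± 0.09. Immediate early and stress genes were lower at 6 of 36 (2 with median normalization), among them *Egr1* by 1.01 ± 0.09 and *Slc2a1* by 1.03 ± 0.12, and 1, *Ctgf*, was higher by 0.57 (2 genes were higher without OV 1). Of 15 housekeeping genes 1 was lower (*Hprt*, by 0.43, 6.67% of the list against 6.51% of all genes) and 0 higher. Of 5 sex-linked genes the Y-linked *Ddx3y* was lower by 0.91 ± 0.12, and the sexes in each pool are not given.

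**Figure D5:**
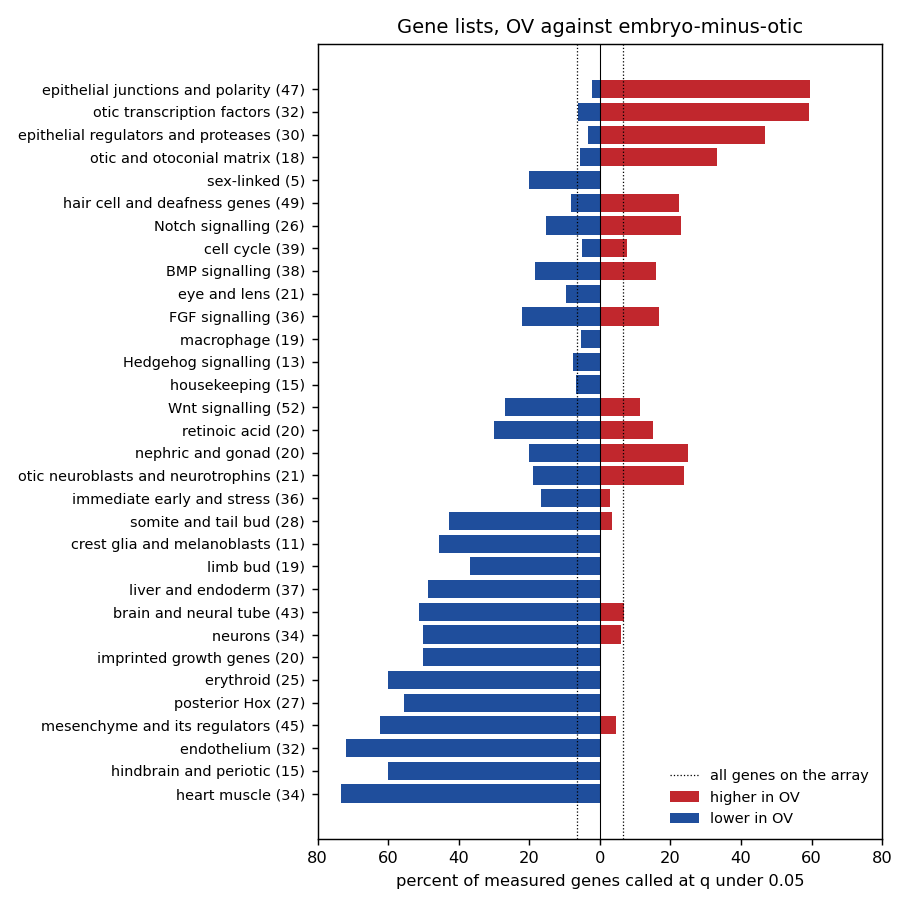
Percent of measured genes in each list (number in parentheses) that were higher (red, to the right) or lower (blue, to the left) in OV at *q* under 0.05, ordered by median difference, with dotted lines at 6.58% and 6.51% of all genes. The lists of otic transcription factors and matrix and both epithelial lists are at the top, and heart muscle, hindbrain, endothelium and mesenchyme at the bottom.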

How the data were processed

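RNA of 9 pools of E10.5 mouse tissue was hybridised to 1-colour MouseRef-8 v2.0 bead arrays. The authors exported the average signal from GenomeStudio, an intensity not normalised between arrays, and deposited it with a detection p-value that ranks it against the negative controls. Whether background was subtracted is not given in the sources used here, and the smallest signal was 32.8. Groups were taken from the tissue in each label. Signals were log2 transformed and quantile normalised, and 1 linear model of 3 groups was fitted with limma 3.58.1 in R 4.3.3, with an empirical Bayes prior and Benjamini-Hochberg adjustment over 25697 probes. List genes were read by the probe with the highest mean level. Of 18120 array symbols, 12036 were RefSeq symbols on GRCm38.p6, 5203 matched through 1 synonym and 881 were not matched. Array number limits precision, with 3 per group.

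The members and gene lists were chosen with earlier results of these data known. Named genes were drawn from the 15 highest and 15 lowest probes with *q* under 0.001 and no overlap, and from the marker genes. Further sources were up to 4 genes a list with the largest called differences, the 8 brightest probes seen in 1 group only, and the 5 largest differences each way between the non-otic groups. Only a part of the marker genes is named, and those left out include called and uncalled ones. More list genes are named to show a list's range, chosen after their values were seen. The fit was tested on simulated data, where 189 of 200 planted changes were recovered, with 15 false calls. Noise was independent between arrays and changes were planted only well above background. Dim probes, the OV 1 excess and correlated arrays were thus not covered. Deviations of same-numbered arrays of different groups correlated weakly, from 0.001 to 0.232, and the replicate number was used only as an alternative block. Alternatives were other background corrections and normalisations, a filter on dim probes, a fit of 6 arrays, an intensity trend, array weights, a test against a 2-fold change, a looser detection threshold, another probe per gene and each array left out in turn. The slide of each array was not analysed here. Some genes that the rule covers are not reported here.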

Additional observations from a re-analysis of the deposited data

How the results depend on the processing

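The counts of probes past *q* under 0.05 depended most on scaling. Median normalization, which raised the median difference over all probes from 0.0043 to 0.0463 on the log2 scale, gave 1472 higher and 670 lower, so that 68.7% of calls were higher in place of 51.6%. With no normalization between arrays the median was -0.0904, with 588 higher, 795 lower and 42.5% of calls higher. The neqc background correction gave 424 higher and 522 lower over 2-fold, and 111 and 145 over 4-fold. A test against a 2-fold change left 93 and 131. Between periotic tissue and embryo-minus-otic, no normalization gave 325 higher and 371 lower, and median normalization 812 higher and 315 lower in place of 736 and 757. Leaving out 1 array at a time gave 1111 to 1517 higher and 1075 to 1447 lower in OV, 211 to 248 and 283 to 325 over 2-fold, and 44 to 54 and 58 to 69 over 4-fold. For periotic tissue it gave 482 to 750 higher, the lowest without periotic 2, and 522 to 755 lower. Detection p under 0.05 gave 175 probes seen only in OV and 268 only in embryo-minus-otic. Same-numbered OV and embryo-minus-otic arrays correlated at 0.0916, 0.213 and 0.000743 in their deviations. With the same-numbered periotic arrays, OV correlated at 0.223, 0.232 and 0.075 and embryo-minus-otic at 0.156, 0.229 and 0.032. Differently numbered arrays of different groups correlated at -0.227 to 0.075. The main fit did not pair arrays by number, and whether a number stands for a litter was not tested. With the replicate block 1659 probes were higher and 1562 lower, and 51 and 63 over 4-fold. Of 1257 values of 74 called probes under the alternatives, 1245 kept call and direction, 12 lost the call and 0 reversed. These probes were those of the marker genes and of the ranked genes, the latter largely picked for large differences in these same data. Most were thus likely to keep the call, and other list genes were not in this count. The cause of these shifts was not tested. Array number and signals near background limit small differences.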
